A study of Mus musculus with 24 samples.

Results

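The 14-3-3 genes of the mouse were examined in differentiating 3T3-L1 cells. The set comprises Ywhab, Ywhae, Ywhag, Ywhah, Ywhaq, Ywhaz and Sfn, which encode the β, ε, γ, η, θ (also called τ), ζ and σ proteins. Members were taken by gene symbol, with no measured value in the rule, and 7 of the 26995 symbols in the deposited tables were taken. Each gene was represented by its 3′UTR entry with the highest mean read count, where an entry is a stretch of 3′ untranslated sequence on which reads were counted.

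14-3-3 proteins form dimers that bind phosphorylated serine and threonine motifs in other proteins, the clients, and alter where a client is located or what it can bind. Insulin signalling makes wide use of them. Akt phosphorylates the Rab GTPase-activating protein Tbc1d4, FoxO factors and the pro-apoptotic protein Bad, and 14-3-3 then binds each of them. In fat cells such steps act on glucose uptake and on transcription. Sfn differs from the other members in being known mainly from epithelial cells.

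3T3-L1 is a mouse embryonic fibroblast line that turns into adipocytes after hormonal induction. Cells were kept in the solvent DMSO or in 0.5 μM ML-792, an inhibitor of the enzyme that activates SUMO for conjugation to proteins. Both groups received the same differentiation medium, with fetal bovine serum, dexamethasone, 3-isobutyl-1-methylxanthine and insulin, which was changed on day 3 for maintenance medium with serum and insulin. RNA was collected on days −2, 1, 3 and 7, with 3 replicates lettered A, B and C for each of the 8 conditions, which gave 24 libraries. The methods give day −2 as the start of ML-792 for a viability assay of these cells, and for the sequenced cultures the start is not given in the sources used here. Before every harvest the cells were labelled with 100 μM 4-thiouridine for 45 min. A library thus holds total reads and, among them, labelled reads, which are taken to come from newly made RNA.

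The libraries held 13554718 to 27013352 total reads and 115709 to 820046 labelled reads. In DMSO the labelled share of a library was 3.17% ± 0.485 on day −2 and 1.03% ± 0.0869 on day 7 (SD, n = 3). Against day −2 in DMSO, 7 of 7 adipocyte markers were higher on days 3 and 7, and 6 of 7 pre-adipocyte markers were lower. Of 6 epithelial markers, Epcam had 0 reads in every library, and Krt14, the 1 tested, was higher on days 3 and 7, with 2.68 ± 3.23 normalized reads on day −2, 179 ± 8.03 on day 3 and 253 ± 41.6 on day 7. Of 4 macrophage markers, Ptprc had 0 reads in every library, and Cd68 was higher on day 3 by a log2 fold change of 2.26, at 105 ± 41.7 normalized reads. Csf1r went the other way, from 39.7 ± 23.5 normalized reads on day −2 to 0.752 ± 1.30 on day 7. Its log2 fold change on day 7 was −5.53, and it was called lower. The part of these markers in the changes of the members was not tested. In bulk RNA, fewer cells of a type and less RNA per cell cannot be told apart.

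Values below are normalized reads, which put the reads of every library on the scale of a library of average effective size. A change is called at an adjusted p under 0.01 between days and under 0.1 between ML-792 and DMSO.

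Ywhab was the most abundant member. Per kilobase of entry its normalized level in DMSO on day −2 was 6186 ± 1226, that of Ywhae was 4755 ± 627, that of Ywhaq 3177 ± 423, that of Ywhag 1840 ± 436 and that of Ywhaz 1294 ± 141 (SD, n = 3). Ywhah had 155 ± 25.5 and Sfn 14.8 ± 6.78 on the same scale. The libraries of Ywhab and Ywhae overlapped, as did those of Ywhag and Ywhaz, and other neighbours in this order did not. On day 7 the order per kilobase had changed, with Ywhab at 27986 ± 1944, followed by Ywhag at 6065 ± 701 and Ywhae at 5954 ± 319, whose libraries overlapped. Ywhaq then had 3361 ± 336, Ywhaz 1510 ± 157, Ywhah 64.4 to 107 over its libraries and Sfn 13.0 ± 12.3 per kilobase. QuantSeq primes at the poly(A) tail, so read number need not scale with the length of an entry. In unscaled reads Ywhab ranked 26 of 13331 tested genes by mean count and Sfn ranked 12227.

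The entries lie in annotated 3′UTRs of mm10, and no other annotated gene overlaps them. The Ywhab entry (NM_018753.6) spans chr2:164016726-164018587 on the plus strand, and that of Ywhae (NM_009536.4) spans chr11:75764673-75765841 on the plus strand. The Ywhag entry (NM_018871.3) lies at chr5:135908379-135910994 on the minus strand and the Ywhah entry (NM_011738.2) at chr5:33027196-33027966 on the plus strand. The Ywhaq entry (NM_011739.3) lies at chr12:21390329-21391355, the Ywhaz entry (NM_011740.3) at chr15:36770261-36772717 and the Sfn entry (NM_018754.2) at chr4:133600556-133601022, all on the minus strand. The annotation names 3 pseudogenes of Ywhaq, and reads shared with them could be placed at either locus. T bases, at which labelled RNA shows its conversions, made up 29.9% to 34.8% of the entries of the Ywha genes and 20.6% of the Sfn entry.

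Promoters are shown for Ywhaq, which was called between ML-792 and DMSO, and for Ywhag, whose lower reads in ML-792 were called only in some alternative settings. They are the 250 bases before the gene start from RefSeq on GRCm38.p6, written 5′ to 3′ on the strand of the gene. Capitals mark the CCAAT box in either orientation (CCAAT or ATTGG) in Ywhaq and the GC box (GGGCGG or CCGCCC) in Ywhag. The Ywhaq stretch is chr12:21417437-21417686 (minus strand, 65.2% GC) and the Ywhag stretch is chr5:135934642-135934891 (minus strand, 58.4% GC).
Ywhaq: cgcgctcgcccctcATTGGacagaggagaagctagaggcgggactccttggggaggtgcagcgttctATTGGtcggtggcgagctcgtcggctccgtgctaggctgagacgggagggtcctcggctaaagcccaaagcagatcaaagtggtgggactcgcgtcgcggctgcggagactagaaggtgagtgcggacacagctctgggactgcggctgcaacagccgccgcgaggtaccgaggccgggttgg
Ywhag: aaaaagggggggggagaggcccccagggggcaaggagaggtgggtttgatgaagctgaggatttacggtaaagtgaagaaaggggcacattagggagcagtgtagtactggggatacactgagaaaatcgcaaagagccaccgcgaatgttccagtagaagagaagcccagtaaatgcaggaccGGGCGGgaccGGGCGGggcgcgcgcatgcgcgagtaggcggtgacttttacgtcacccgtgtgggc
The Ywhaq promoter held 2 CCAAT boxes, at 236 and 183 bases before the start, and no GC box. The Ywhag promoter held 2 GC boxes, at 66 and 56 bases before the start, and no CCAAT box. Of all 32851 RefSeq promoters of this length, 33.8% held a CCAAT box and 32.7% a GC box on either strand. The cAMP response element TGACGTCA, found in 1.55% of promoters, was present in Ywhah, at 96 bases before the start, and in none of Ywhaq, Ywhag, Ywhae and Sfn. Other searched motifs were the TATA box TATAAA (12.4% of promoters), the C/EBP core TTGCNNAA (9.56%) and the glucocorticoid receptor motif AGAACA (16.1%), and none of these was in either printed sequence. The table matched 5 of the 7 members, and Ywhab and Ywhaz were not matched. A match is a stretch of letters and not a tested binding site.

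In DMSO 5 of the 7 members rose by day 3. Ywhab rose most, followed by Ywhaq, Ywhag, Ywhaz and Ywhae, where day 3 was compared with day −2 over the 12 DMSO libraries by edgeR's quasi-likelihood test. Among all 26563 entries tested, 30.5% were called in this comparison, higher or lower. The median log2 fold change of the 7 members was 0.87, beside −0.02 over all entries. On day 1 no member was called, where 2 had an unadjusted p under 0.05 and DESeq2 called 0. The background on day 1 was 13.7% of entries. On day 7, 2 members were still higher than on day −2. Of all entries, 15.5% were called higher on that day, and 32.6% were called in either direction.

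Ywhab encodes 14-3-3β, which among its known partners binds Raf kinases. In DMSO it had 12564, 8900 and 13089 normalized reads on day −2 in replicates A, B and C, and 13328, 10651 and 13130 on day 1. On day 3 it had 55292, 41635 and 58894, and on day 7 53893, 47944 and 54490. All libraries of days 3 and 7 lay above all of days −2 and 1, with no overlap. The log2 fold change against day −2 was 2.17 ± 0.20 (SE) on day 3, a 4.51-fold rise (adjusted p = 4.19e-07), and 2.18 ± 0.20 on day 7 (adjusted p = 3.32e-07). The rise took place between days 1 and 3, with a log2 fold change of 2.07 (adjusted p = 1.37e-06). From day 3 to day 7 the log2 fold change was 0.00 (adjusted p = 0.995). Of the 26563 entries, 5.78% had a larger log2 fold change than Ywhab on day 3.

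Ywhag encodes 14-3-3γ, and its total reads were higher on days 3 and 7 than on day −2. It had 5612, 3507 and 5325 normalized reads in DMSO on day −2, and 7276, 5295 and 7011 on day 1. It had 12158, 8722 and 11952 on day 3 and 16612, 13777 and 17207 on day 7. The libraries of day 3 lay above those of days −2 and 1, and those of day 7 lay above all others. Against day −2 the log2 fold change was 0.44 ± 0.21 (SE) on day 1, where the libraries overlapped (adjusted p = 0.158), 1.18 ± 0.21 on day 3 (adjusted p = 0.00033) and 1.72 ± 0.22 on day 7, which is 3.30-fold (adjusted p = 9.25e-06). Without replicate A or without replicate C the day 3 rise was not called (adjusted p 0.0140 and 0.0118). The steps from day 1 to day 3, a log2 fold change of 0.75 (adjusted p = 0.0147), and from day 3 to day 7, one of 0.54 (adjusted p = 0.105), did not pass the test. The first was called in 4 of 8 alternatives, by DESeq2 (0.0041), with no filter (0.0037), with the replicate block (6.54e-05) and without replicate B (0.00011). The second was called in 2 of 8, with the replicate block (0.0018) and without replicate B (0.0057).

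Ywhaq, the gene of 14-3-3θ, rose and then fell. Its normalized reads in DMSO were 3194, 3727 and 2867 on day −2 and 3392, 4763 and 3217 on day 1. On day 3 they were 6894, 9455 and 7417, and on day 7 they were 3166, 3835 and 3353. Only on day 3 did the DMSO libraries stand clear of those of the other days. The day 3 log2 fold change against day −2 was 1.28 ± 0.20 (SE), or 2.43-fold (adjusted p = 7.2e-05). The change was 1.06 from day 1 to day 3 (adjusted p = 0.00062) and −1.20 from day 3 to day 7 (adjusted p = 0.00053). On day 7 the log2 fold change against day −2 was 0.08 (adjusted p = 0.767). Without replicate A or without replicate C the steps from day 1 (adjusted p 0.0316 and 0.0242) and to day 7 (0.0374 and 0.0185) were not called.

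Ywhaz and Ywhae encode the ζ and ε proteins, and 14-3-3ε dimerizes mostly with other members. Normalized reads of Ywhaz in DMSO were 2908, 3568 and 3062 on day −2, 5234, 6451 and 5723 on day 3, and 3393, 4141 and 3596 on day 7. Ywhae had 5511, 6314 and 4850 on day −2, 9932, 9865 and 7499 on day 3, and 7380, 6666 and 6834 on day 7. For both genes every day 3 library lay above every day −2 library. The day 3 log2 fold change was 0.87 ± 0.16 (SE) for Ywhaz (adjusted p = 0.00051) and 0.71 ± 0.18 for Ywhae (adjusted p = 0.0052). Neither gene was called when replicate A or replicate C was left out, with adjusted p 0.0286 and 0.0231 for Ywhaz and 0.140 and 0.0287 for Ywhae. From day 3 to day 7 the log2 fold change of Ywhaz was −0.65 (adjusted p = 0.0133) and that of Ywhae was −0.39 (adjusted p = 0.179), and for both the groups did not overlap. The value of Ywhaz was called in 4 of 8 alternatives. These were DESeq2 (adjusted p = 0.00081), the replicate block (0.00025), all 24 libraries in a fit (0.0018) and leaving out replicate B (0.0013). On day 7 against day −2 the values were 0.22 (adjusted p = 0.296) and 0.32 (adjusted p = 0.167).

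Ywhah, the gene of 14-3-3η, was a low member with a mean of 78.3 reads per library. It had 108, 142 and 108 normalized reads on day −2 in DMSO, 38.3, 63.8 and 66.0 on day 3, and 49.6, 82.4 and 58.3 on day 7. All libraries of days 3 and 7 lay below those of day −2, but the log2 fold changes of −1.09 (adjusted p = 0.0416) and −0.91 (adjusted p = 0.0798) did not pass the test. Sfn had 0 to 23 reads in a library, and a count of 0, found in 1 library, allows for up to 3 reads. Its normalized reads on day 1 in DMSO were 13.8, 16.4 and 14.8 beside 3.55 to 9.84 on day −2, which did not pass the test (adjusted p = 0.377).

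Between adjacent days, 2 members were called from day 1 to day 3, Ywhab and Ywhaq, and 1 from day 3 to day 7, Ywhaq. The backgrounds were 18.9% and 8.77% of entries.

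**Figure D1:**
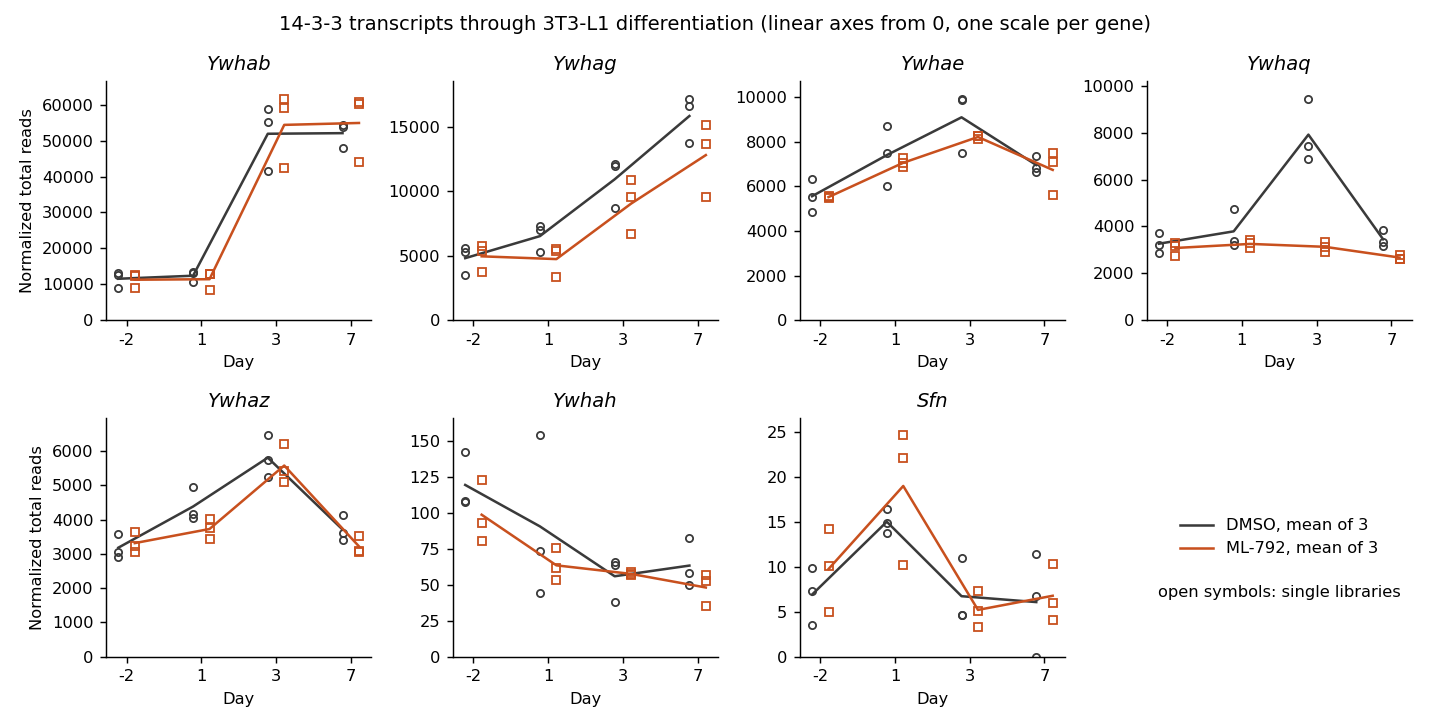
Normalized total reads (vertical axis, linear from 0, each panel with its own scale) of the 7 members on days −2, 1, 3 and 7 (horizontal axis, days evenly spaced). Points are single libraries, dark circles for DMSO and orange squares for ML-792, and lines join the means of 3 replicates. Ywhab has a DMSO mean of 12370 on day 1 and of 51940 on day 3, and Ywhaq rises on day 3 in DMSO and not in ML-792.

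The plot of the members by day shows these courses library by library, with the ML-792 libraries beside those in DMSO. Replicate B stood apart in a fixed direction for some members. It was the lowest of its 3 libraries in 8 of 8 conditions for Ywhab and for Ywhag, the highest in 8 of 8 for Ywhaz and the highest in 7 of 8 for Ywhaq. The part of this offset in the results was not tested, beyond the values given without each replicate and the fits with the letter as a replicate block.

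As a group the members had 28458 ± 2007 normalized reads in DMSO on day −2, 34576 ± 993 on day 1, 85770 ± 8351 on day 3 and 82165 ± 4971 on day 7 (SD, n = 3). The sum on day 3 was 3.01 times that on day −2, and in ML-792 it was 2.85 times. Per kilobase, Ywhab made up 35.4% ± 6.22 of the family in DMSO on day −2 and 62.2% ± 1.11 on day 7. Ywhae had 27.4% ± 4.28 of the family on day −2 and 13.2% ± 0.591 on day 7, while its own reads were no fewer. Ywhaq had 15.6% ± 3.83 of the family on day 3 and 7.51% ± 1.16 on day 7. These shares are a description and carry no test.

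**Figure D2:**
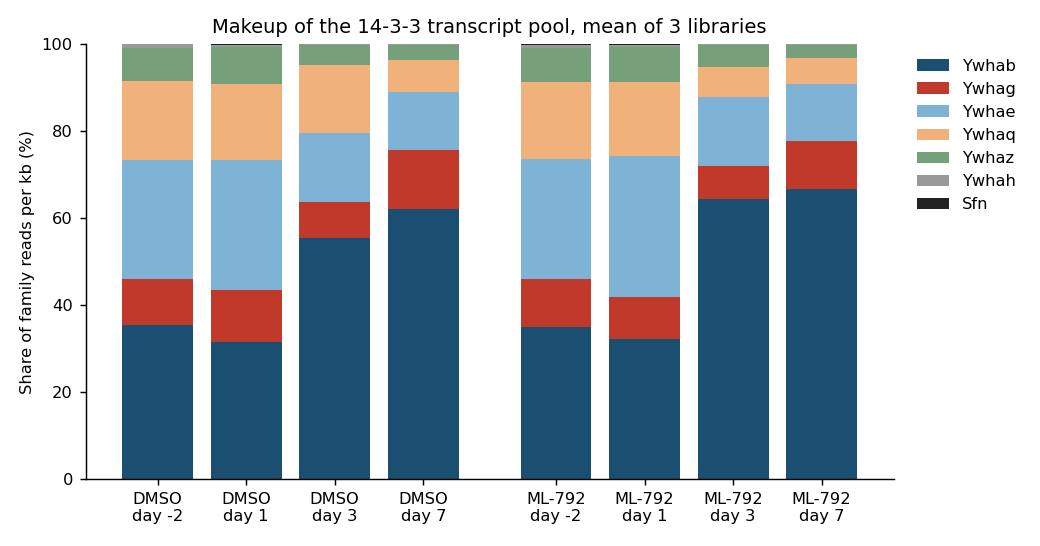
Share of the 14-3-3 family reads per kilobase of entry (vertical axis, percent, mean of 3 libraries) held by each member at each day in DMSO and in ML-792. Ywhab takes 35.4% of the family on day −2 and 62.2% on day 7 in DMSO, and the Ywhaq share on day 3 is 15.6% in DMSO and 6.89% in ML-792.

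The stacked shares show that the family on day 7 consisted mostly of Ywhab in both treatments. In ML-792 Ywhab held 66.7% ± 1.24 on day 7.

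Of the 7 members, 1 was called between ML-792 and DMSO in total reads in the fit of 24 libraries without a replicate block. Ywhaq did not show its day 3 peak in treated cells, and no other member was called on any day in that fit. With the letter A, B or C as a replicate block, Ywhag was also called, lower on days 1, 3 and 7. The question of this comparison is whether SUMO conjugation bears on a gene's course in differentiation. In ML-792 the normalized reads of Ywhaq were 2752, 3308 and 3179 on day −2, 3070, 3403 and 3288 on day 1, 2928, 3340 and 3121 on day 3, and 2783, 2605 and 2624 on day 7. All of them lay between 2605 and 3403, so that no treated library reached the lowest DMSO library of day 3, which had 6894. On day 3 the log2 fold change of ML-792 over DMSO was −1.34 ± 0.16 (SE), which is 2.53-fold lower (adjusted p = 2.73e-06). Of all entries tested, 12.9% were called on day 3, and 956 entries (3.60%) had a lower log2 fold change than Ywhaq. The call held in all 8 alternative settings, with log2 fold changes between −1.38 and −1.24 and adjusted p between 4.39e-15 and 0.0043.

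On the other days Ywhaq did not pass the test between treatments. Its log2 fold change was −0.08 on day −2 (adjusted p = 1), −0.22 on day 1 (adjusted p = 0.596) and −0.37 on day 7 (adjusted p = 0.199), where the treated libraries all lay below the DMSO ones. The background of calls was 0% of entries on day −2, 6.55% on day 1 and 9.6% on day 7. On each of these days edgeR over the 24 libraries without a replicate block called 0 of 7 members, and DESeq2 called 0. The count of members with an unadjusted p under 0.05 was 0 on days −2 and 1 and 1 on day 7, which was Ywhaq. With the replicate block in edgeR, the day 7 difference of Ywhaq was called (adjusted p = 0.033).

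The interaction of day and treatment over the 24 libraries was called for Ywhaq (adjusted p = 0.0018) and for none of the other members, whose adjusted p lay between 0.806 and 0.992. It was called for 9.66% of all entries. With the replicate block, the interaction was called for Ywhag as well (adjusted p = 0.049). Without replicate A the adjusted p of Ywhaq was 0.185 and without replicate C it was 0.197, so the call of the interaction rested on both. Within ML-792 the log2 fold change of Ywhaq against day −2 was 0.02 ± 0.12 (SE) on day 3 (adjusted p = 0.900).

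**Figure D3:**
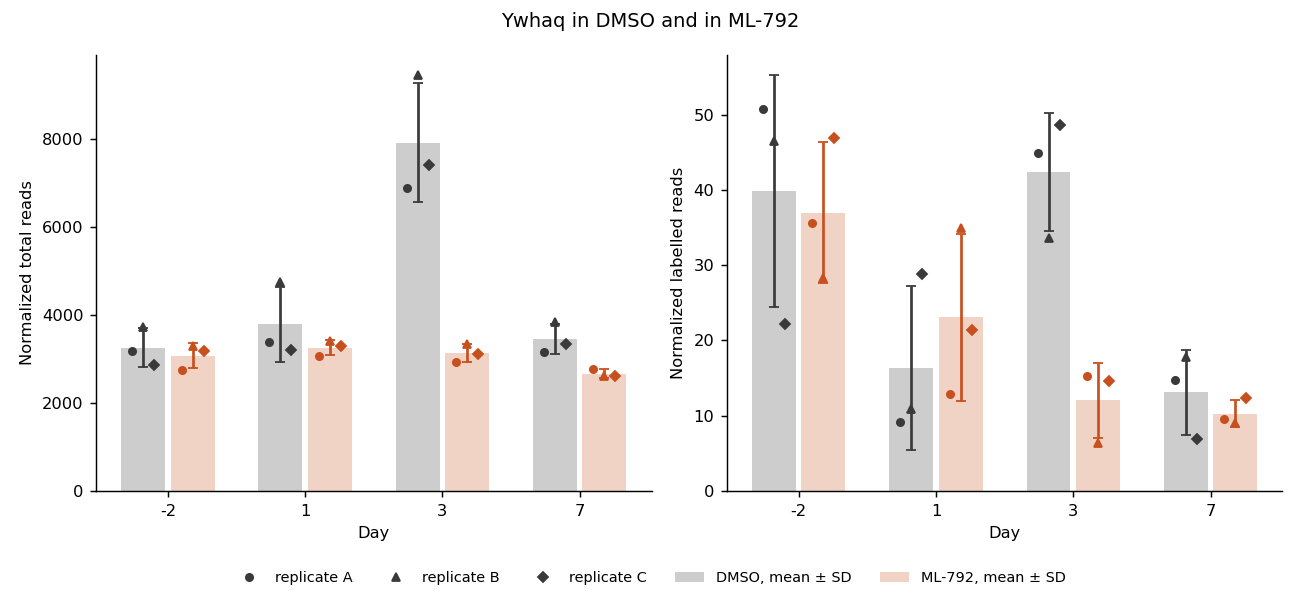
Ywhaq in normalized total reads (left) and normalized labelled reads (right) on days −2, 1, 3 and 7 (both vertical axes linear from 0). Bars are means of 3 replicates with SD, grey for DMSO and orange for ML-792, and points are replicates A (circle), B (triangle) and C (diamond). On day 3 the total reads are 6894 to 9455 in DMSO and 2928 to 3340 in ML-792, and the labelled reads are 33.6 to 48.6 and 6.33 to 15.2.

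The bars of Ywhaq show the difference on day 3 on both kinds of read. In normalized labelled reads Ywhaq had 44.9, 33.6 and 48.6 in DMSO on day 3 and 15.2, 6.33 and 14.6 in ML-792, with no overlap. The log2 fold change was −1.79 ± 0.53 (SE) and did not pass the edgeR test without a replicate block (adjusted p = 0.118). It was called in 5 of 9 alternatives, DESeq2 among them (0.0495), and adjusted p ranged from 0.0495 to 0.439. The labelled values rest on 29 to 42 labelled reads per library in DMSO and 5 to 14 in ML-792, so the counting error was large. The median log2 fold change of all labelled entries on day 3 was −0.08.

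Cell state markers differed on day 3 as well. The summed normalized reads of 7 pre-adipocyte markers were 11814 to 13982 in DMSO and 24591 to 30429 in ML-792, and those of 5 proliferation markers were 4093 to 5969 and 2390 to 4015. Neither pair of ranges overlapped, and no marker of either list was at 0 in a whole group. Most of the pre-adipocyte sum was Col1a1, at 7243 ± 558 in DMSO and 17547 ± 2442 in ML-792. Mean reads of Ly6a, Pdgfra and Thy1 were also higher in ML-792, while Dlk1 had 3570 ± 564 in DMSO and 2525 ± 690 in ML-792, Pdgfrb 133 ± 26.0 and 124 ± 21.4, and Cd34 0.729 and 0.422. The 7 adipocyte markers had summed reads of 356460 to 504071 in DMSO and 411045 to 470427 in ML-792, which overlapped. Single genes of this sum went both ways. Lpl had 226852 ± 28028.5 in DMSO and 170338 ± 15977 in ML-792, and Adipoq 30445.5 ± 3201 and 16749 ± 1768. Fabp4 had 136324 ± 55328.5 in DMSO and 214706 ± 24114 in ML-792. Mean reads of Plin1 were also higher in ML-792, and those of Cidec, Pparg and Cebpa were lower. The part of these differences in the Ywhaq result was not tested.

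Within ML-792, 3 of 7 members were called on day 3, against a background of 34.7%. These were Ywhab with a log2 fold change of 2.27 (adjusted p = 1.89e-06), Ywhaz with 0.75 (adjusted p = 0.00042) and Ywhae with 0.57 (adjusted p = 0.0024). Without replicate A or C the calls of Ywhaz (adjusted p 0.0234 and 0.0144) and Ywhae (0.0574 and 0.0417) were lost. Ywhag was higher in every ML-792 library of day 3 than in any of day −2, with a log2 fold change of 0.87 that did not pass the test (adjusted p = 0.0111), and it was called in 5 of 7 alternatives, by DESeq2 (0.0017) and without replicate B (1.33e-05) among them. On day 7, 3 members were called, against 34.8% of entries. Ywhab had 2.29 (adjusted p = 1.64e-06), Ywhag 1.37 (adjusted p = 0.0005), and Ywhah −1.03 (adjusted p = 0.0073). The call of Ywhag was lost without replicate A (adjusted p = 0.0151) or C (0.0215), and that of Ywhah without A, B or C (0.0313 to 0.0789). Ywhae, with 0.29 (adjusted p = 0.0879), was called without replicate B (0.0095). On day 1 in ML-792, 0 of 7 were called by edgeR and 1 by DESeq2, 2 had an unadjusted p under 0.05, and the background was 20%.

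Ywhab did not pass the test between treatments on any day. It had 61701, 42308 and 59232 normalized reads in ML-792 on day 3 and 60135, 44004 and 60703 on day 7, overlapping the DMSO libraries of the same days. The log2 fold change of ML-792 over DMSO was 0.07 ± 0.21 (SE) on day 3 (adjusted p = 0.925) and 0.08 ± 0.21 on day 7 (adjusted p = 0.907).

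Ywhag had a lower mean in ML-792 on days 1, 3 and 7, which did not pass the test with all 24 libraries and no replicate block. Its normalized reads in ML-792 were 5511, 3362 and 5352 on day 1, 10868, 6724 and 9571 on day 3, and 15191, 9578 and 13711 on day 7. In each case replicate B lay below the other two, as it did in DMSO. The log2 fold changes against DMSO were −0.46 ± 0.24 (SE) on day 1 (adjusted p = 0.385), −0.27 ± 0.24 on day 3 (adjusted p = 0.613) and −0.31 ± 0.24 on day 7 (adjusted p = 0.570). Without replicate B the day 1 value was −0.40 and was called (adjusted p = 0.0373). With the letter as a replicate block in edgeR, all of these days were called. The values were then −0.48 on day 1 (adjusted p = 0.0015), −0.29 on day 3 (0.051) and −0.33 on day 7 (0.025). Ywhae, Ywhaz, Ywhah and Sfn had overlapping groups on day 3 and on day 7.

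Labelled reads give a second view of the same libraries, limited to new RNA. Ywhah had at most 8 labelled reads in a library and Sfn at most 2, so 5 members could be tested among 10589 entries. Counts were scaled by total reads, and on that scale the median log2 fold change of all labelled entries against day −2 was −1.27, −1.70 and −1.54 on days 1, 3 and 7. Each member's value is therefore also given relative to this median.

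On day 1, 2 of 5 members were called in labelled reads, against 19.7% of entries, and both were lower. Ywhab had 362, 130 and 314 normalized labelled reads on day −2 and 92.0, 72.9 and 124 on day 1, with no overlap, a log2 fold change of −1.48 ± 0.35 (SE) (adjusted p = 0.0011). Relative to the median entry this was −0.21. The call was lost without replicate A (adjusted p = 0.0963) or C (0.0172). Ywhaz had 133, 119 and 62.2 on day −2 and 41.4, 34.6 and 43.7 on day 1, a log2 fold change of −1.39 ± 0.41 (SE) (adjusted p = 0.0079), or −0.12 relative to the median. That call was lost without any 1 letter (adjusted p 0.0182 to 0.156) and with no filter on low counts (0.0210).

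On day 3 edgeR called 0 of 5 members and DESeq2 called 1, 1 had an unadjusted p under 0.05, and 34.4% of entries were called. Labelled reads of Ywhab were 395, 255 and 368, overlapping day −2, with a log2 fold change of 0.34 (adjusted p = 0.398) that was 2.04 above the median entry. Those of Ywhaq were 0.09 above day −2 and 1.79 above the median entry (adjusted p = 0.887). Those of Ywhag were 0.06 above day −2 and 1.76 above the median (adjusted p = 0.890). In Ywhaz and Ywhae, which had risen in total reads, every labelled value of day 3 lay below those of day −2. The log2 fold change was −1.19 for Ywhaz (adjusted p = 0.0149), which DESeq2 called (0.0081), and −0.78 for Ywhae (adjusted p = 0.0857). Relative to the median entry they were 0.51 and 0.93.

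On day 7, 1 of 5 members was called, Ywhaz, against 30.2% of entries, with a log2 fold change of −1.46 (adjusted p = 0.0041) that was 0.08 above the median entry. The call was lost without replicate A (adjusted p = 0.109) or C (0.0193) and with no filter on low counts (0.0107). Ywhag had 336, 385 and 300 normalized labelled reads on day 7 and 273, 132 and 186 on day −2. All 3 later libraries were higher, with a log2 fold change of 0.79 ± 0.34 (SE) (adjusted p = 0.0506), or 2.32 above the median entry. Ywhaq had 14.7, 17.7 and 6.85 on day 7 and 50.7, 46.5 and 22.2 on day −2, a log2 fold change of −1.59 ± 0.54 (SE) (adjusted p = 0.0141), or −0.06 relative to the median entry. With counts scaled by labelled reads in place of total reads, Ywhab and Ywhag were called higher on days 3 and 7, by log2 fold changes of 1.92 and 1.55 in Ywhab and of 1.61 and 2.27 in Ywhag. Under that scaling the day 1 values of Ywhab and Ywhaz were −0.17 and −0.15 and the day 7 value of Ywhaz was −0.04, and none of them was called.

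**Figure D4:**
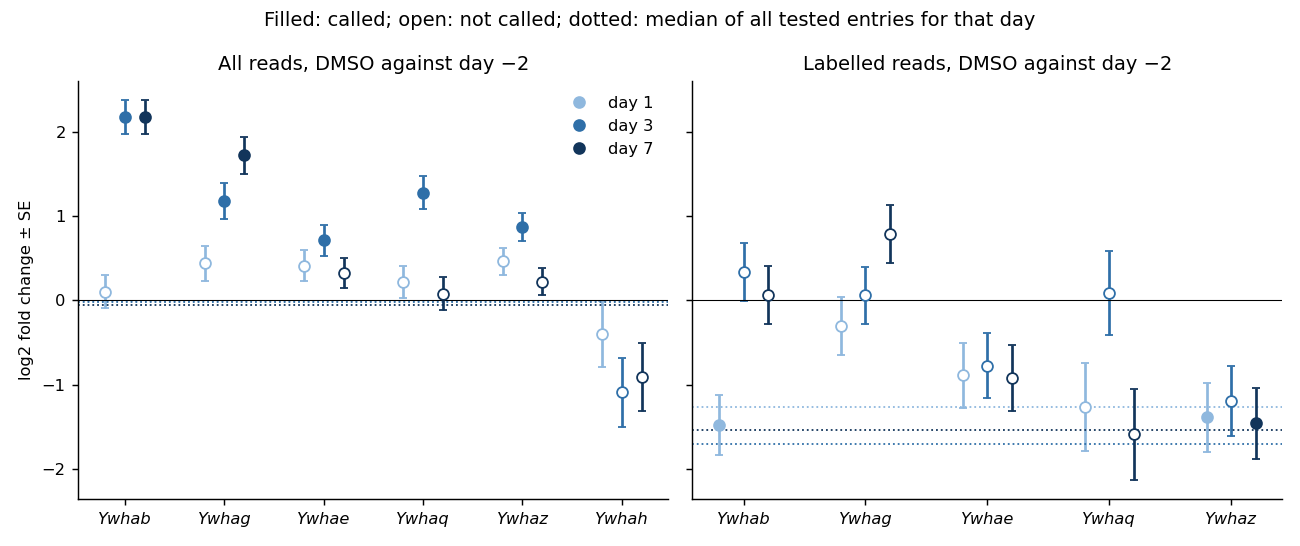
Log2 fold change with SE (vertical axis) of days 1, 3 and 7 against day −2 in DMSO, in all reads (left) and in labelled reads (right), for the members tested except Sfn. Filled points are called at an adjusted p under 0.01, and dotted lines are the median of all tested entries for each day. In labelled reads the medians lie between −1.70 and −1.27, and Ywhab, Ywhag and Ywhaq stand 1.76 to 2.04 above the day 3 median.

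The paired panels of changes show that the members lay around or above the median of all entries in labelled reads. Between ML-792 and DMSO, 0 of 5 members were called by edgeR in labelled reads on any day. The backgrounds were 0% on day −2, 0.888% on day 1, 0.916% on day 3 and 0.869% on day 7. On days 1, 3 and 7, 1 member each had an unadjusted p under 0.05, and DESeq2 called 0, 1 and 1 (0 and 0 on day −2). Ywhag on day 7 had 236, 124 and 132 normalized labelled reads in ML-792 and 300 to 385 in DMSO. The treated libraries were all lower, with a log2 fold change of −1.05 ± 0.33 (SE), but the edgeR test without a replicate block was not passed (adjusted p = 0.150). It was called in 3 of 9 alternatives, by DESeq2 (0.0552), with the 6 libraries of the day (0.0330) and with the replicate block (0.0116). The highest adjusted p was 0.571. Ywhag was also lower in every treated library on day 1, with −0.88 ± 0.33 (adjusted p = 0.247). There it was called in 1 of 9 alternatives, the replicate block (0.0716), and the highest adjusted p was 0.510. The paper shows Ywhag and Lipe as examples for its proposed coactivator role of SUMO. It assigns that role at SUMO-target genes whose labelled transcription was lower in ML-792. The medians of all labelled entries were −0.37 on day 7 and −0.30 on day 1. The interaction was called for 0.246% of labelled entries and for 0 of 5 members, where 1, Ywhaq, had an unadjusted p under 0.05 and DESeq2 called 0.

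The relative labelled share compares how far the reads of a gene were labelled. It is the labelled share of a member divided by the labelled share of the library, so that 1 means as labelled as the library's reads in all. It was not corrected for T to C mismatches from other sources. In DMSO on day −2 it was 1.28 ± 0.144 for Ywhag, 1.04 ± 0.340 for Ywhaz, 0.697 ± 0.138 for Ywhab, 0.607 ± 0.0781 for Ywhae and 0.380 ± 0.115 for Ywhaq (SD, n = 3). By these means Ywhag had the highest share and Ywhaq the lowest, and the libraries of Ywhag and Ywhaz overlapped. The T content of the entries was 29.9% in Ywhag, 34.8% in Ywhaz, 30.3% in Ywhab, 33.9% in Ywhae and 32.4% in Ywhaq, and its part in these shares was not tested.

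Over the 9 DMSO libraries of days 1, 3 and 7 the mean relative share was 1.98 for Ywhag, 0.833 for Ywhaz, 0.678 for Ywhae, 0.586 for Ywhab and 0.420 for Ywhaq. Against the 3 libraries of day −2, a two-sided exact permutation test over 220 splits gave p = 0.0591 for Ywhag, the lowest of the 5, and 0.0955 for Ywhab. Adjusted over 5 members the p-values were 0.239 for both and 0.364 to 0.741 for the other members, and the smallest p this design allows is 0.0045. Single days were not tested. For Ywhab the later minus day −2 difference was −0.11, between −0.19 and −0.05 when 1 letter was left out, and without replicate B its p was 0.0357, the smallest that 28 splits allow (adjusted p = 0.179).

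**Figure D5:**
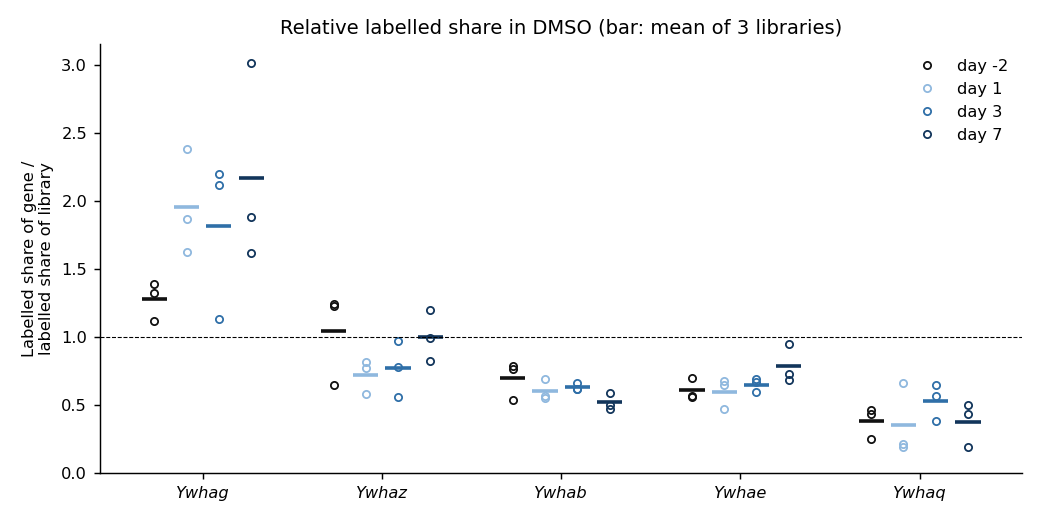
Relative labelled share (vertical axis, labelled share of a member divided by that of the library) of 5 members in DMSO on days −2, 1, 3 and 7. Points are libraries, and the dashed line at 1 marks the share of the library. Ywhag lies above 1 on every day by its mean, from 1.28 on day −2 to 2.17 on day 7, and the day means of Ywhaq lie between 0.355 and 0.532.

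The plot of relative shares shows Ywhag apart from Ywhab, Ywhae and Ywhaq on each day. Ywhab and Ywhag, which had similar courses in total reads, thus differed in the share of their reads that counted as labelled.

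Genes with the most similar course were ranked by Pearson correlation of log2 normalized reads over the 24 libraries among 13331 genes. These libraries share day and treatment, so that every gene that rises with differentiation correlates, and no test is given. Closest to Ywhab were Pdhb (r = 0.986), a subunit of pyruvate dehydrogenase, Agpat2 (r = 0.986), an acyltransferase of triglyceride synthesis, and Hadh (r = 0.986), an enzyme of fatty acid oxidation. The same ranking for the other members was added after their values had been seen. Closest to Ywhag were Clybl (0.979), Prkaca (0.974), the catalytic subunit of protein kinase A, and Sphk2 (0.973), a sphingosine kinase. Ywhaz was closest to Eif4e (0.931), the cap-binding translation factor, and Ywhae to Kmt5a (0.909), a histone methyltransferase. Ywhaq was closest to Limk2 (0.899), a kinase that phosphorylates cofilin. Among the members themselves, Ywhab correlated with Ywhag (r = 0.91), Ywhae with Ywhaz (0.75) and Ywhaq with Ywhaz (0.69).

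The proteins that 14-3-3 binds were read from a list of 36 clients and 11 kinases that phosphorylate them, chosen with earlier results of these data known, and all 47 genes were tested. On day 7 against day −2 in DMSO, 10 of the 47 were higher and 10 lower, beside 15.5% and 17.1% of all entries. Their median log2 fold change was −0.02, beside 0.22 over the 14-3-3 members themselves and −0.06 over all entries. Of 8 insulin and glucose clients, 2 were higher and 2 lower. Tbc1d4, the Akt substrate that restrains movement of the glucose transporter Glut4, went from 149 ± 4.18 to 998 ± 96.0 normalized reads, a log2 fold change of 2.74 (adjusted p = 3.23e-09). Its paralog Tbc1d1 fell by 1.12 on the log2 scale, Irs2 was higher by 0.96, and Irs1 fell by 1.35.

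Of 11 kinases, 3 were higher and 1 lower. Salt-inducible kinase Sik2, itself a 14-3-3 client, went from 550 ± 61.6 to 3331 ± 193 normalized reads (adjusted p = 9.61e-09), and Sik1 fell by 1.32 on the log2 scale. Of 13 transcription clients, 3 were higher and 2 lower. The class IIa histone deacetylases were split, with Hdac9 higher at a log2 fold change of 3.32 (adjusted p = 0.0035, from 4.00 ± 3.47 to 41.2 ± 14.4 normalized reads) and Hdac7 and Hdac4 lower at −2.30 and −1.22. Mlxipl, the glucose-responsive factor ChREBP, had 0 reads in every day −2 library and 62.8 ± 25.9 normalized reads on day 7. All 3 mRNA decay clients were lower, among them Zfp36l1, which binds AU-rich elements, from 10161 ± 775 to 2475 ± 126 normalized reads. Of 8 clients in the cell cycle and cell death, 1 was higher and 2 were lower. The higher gene was Map3k5 at 2.29 (adjusted p = 1.22e-05), from 29.8 ± 5.29 to 146 ± 15.0 normalized reads. The lower genes were the phosphatases Cdc25c at −2.14 and Cdc25b at −1.48. Of 4 Raf clients 1, Araf at 1.15, was higher.

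Between ML-792 and DMSO on day 7, 2 of the 47 were higher and 4 lower, beside 5% and 4.6% of entries. The higher genes were both insulin clients, Irs1 with a log2 fold change of 1.22 (adjusted p = 0.0080) and Tbc1d4 with 0.50 (adjusted p = 0.021). The lower genes were Map3k5, Wee1, Sgk1 and Ksr1, with log2 fold changes of −1.63, −0.92, −0.55 and −0.53.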

How the data were processed

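The authors mapped and filtered the reads with SlamDunk against mm10 and assigned them to RefSeq 3′UTR coordinates, per the paper's methods, and demultiplexing used bcl2fastq 2.17.1.14 per the labels. The deposited values are raw counts of all reads and of labelled reads, those with at least 1 T to C conversion, for 91830 entries, with no normalization. Per table, 6 library columns matched no sample and were not used, and the deposited score of T content, read as the number of T bases of an entry, gave the T percentages.

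Libraries were grouped by their titles, which give treatment, day and replicate letter. The methods state 3 biological replicates per condition. Entries were filtered with filterByExpr (minimum count 10, minimum total 15), normalized by TMM and tested with edgeR 4.0.16 in R 4.3.3, with Benjamini-Hochberg adjustment over all entries tested. For labelled counts, the size and TMM factor of each library were those of its total counts. Day comparisons used the 12 libraries of a treatment, and treatment comparisons and the interaction (an F-test of 3 terms) used all 24. Log2 values for correlations used a prior count of 2. The test was checked on simulated counts for the DMSO comparison of day 7 with day −2. These counts had a fixed spread and no effect of the replicate letter, so the check does not cover such an effect. Alternatives were DESeq2 1.42.0, no filter, 1 entry per gene, a replicate block, all 24 libraries or the 6 of a day in a fit, scaling by labelled reads and leaving out each replicate letter. The floor given for Sfn covers counting error only, and reads carried no molecular identifiers. SDs are over the libraries of a condition, and SEs come from the edgeR fit, which estimates the spread between libraries. The gene family and the lists were chosen for study with earlier results of these data known. Named are the members, their closest genes by correlation, and the called list genes with the largest change.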

Additional observations from a re-analysis of the deposited data

Results flagged for a closer look

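The effect of ML-792 on Ywhaq in total reads differed between days. The interaction of day and treatment, an F-test of 3 terms over 24 libraries in edgeR, had an adjusted p of 0.0018, with log2 fold changes of ML-792 over DMSO of −0.08 on day −2, −0.22 on day 1, −1.34 on day 3 and −0.37 on day 7.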

How the results depend on the processing

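Ywhaq on day 3 between ML-792 and DMSO stayed called and lower in total reads under every alternative run, and Ywhab stayed called and higher on days 3 and 7 in both treatments. The alternative of another, non-overlapping entry of a member was not run, because no member had one. The number of members called changed by over 1.5 times in the following cases, with smaller changes given for DESeq2 in total reads. In labelled reads of DMSO it was 1 on day 1 and 0 on day 7 with no filter on low counts. It was 1 on day 3 with DESeq2, and 1 on day 3 and 2 on day 7 with all 24 libraries in a fit. With counts scaled by labelled reads it was 0, 2 and 2 on days 1, 3 and 7 in DMSO and 1 between treatments on day 3. Between treatments in labelled reads 1 member was called on day 3 with DESeq2, with 1 entry per gene and with the 6 libraries of the day, and 1 on day 7 with DESeq2 and with the 6 libraries. In total reads DESeq2 called 3 for the step from day 1 to day 3 and 2 for that from day 3 to day 7 in DMSO, and 1, 4 and 4 on days 1, 3 and 7 in ML-792, and all 24 libraries in a fit called 2 from day 3 to day 7. The relative labelled share without division by the library's share was lower later for every member, in percent points by −1.59 for Ywhab, −1.18 for Ywhae, −1.86 for Ywhag, −0.74 for Ywhaq and −2.41 for Ywhaz, since the share of the whole library fell (exact permutation, adjusted p 0.0057 to 0.0091).

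Leaving out 1 replicate letter gave 0 to 1 members in labelled reads of DMSO on day 1 and on day 7. In total reads of DMSO it gave 0 to 1 on day 1, 2 to 5 on day 3, 1 to 3 for the step from day 1 to day 3 and 0 to 3 for that from day 3 to day 7. In ML-792 it gave 1 to 4 on day 3 and 1 to 3 on day 7, and between treatments 0 to 1 on day 1 and 0 to 1 for the interaction. The later minus day −2 difference of the relative share of Ywhaq ranged from −0.06 to 0.11.

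The letters A, B and C were not taken as pairs, since 68 of 84 same-letter correlations of deviations in total reads were over 0.1 and the lowest was −0.17, beside 20 of 168 between different letters. With the letter as a replicate block, the members called in total reads were 2 on day 1, 4 for the step from day 1 to day 3 and 3 for that from day 3 to day 7 in DMSO, 1 on day 1 in ML-792, 1, 2 and 2 on days 1, 3 and 7 between treatments, and 2 for the interaction. In labelled reads the block gave 1 on day 3 and 2 on day 7 in DMSO and 1 at each of days 1, 3 and 7 between treatments. The added calls between treatments in total reads were Ywhag on day 1 (−0.48, adjusted p = 0.0015), day 3 (−0.29, 0.051) and day 7 (−0.33, 0.025), with an interaction of adjusted p = 0.049, and Ywhaq on day 7 (−0.36, 0.033). What moved other counts was not tested. Depth limited the labelled reads, with 5 to 70 per library for Ywhaq and too few to test for Ywhah and Sfn.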
